A study of Mus musculus with 27 samples.

Results

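The genes described here encode the subunits of the Arp2/3 complex and drebrin. They are the 10 rows, of 54532 in the deposited gene table, whose symbol is Actr2, Actr3, Arpc1a, Arpc1b, Arpc2, Arpc3, Arpc4, Arpc5, Arpc5l or Dbn1. Messenger RNA of the tibialis anterior muscle was sequenced from C57BL/6 mice, males aged 8 weeks, either uninjured (n = 5) or at 3 (n = 5), 7 (n = 6), 14 (n = 6) and 21 (n = 5) days after volumetric muscle loss (VML). VML was made by cutting away 40% of the muscle and no other treatment is named for any group. The series record calls the excision unilateral and the methods of the study call it bilateral, and no label tells which muscles came from one animal. P-values therefore measure the spread between these samples.

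The Arp2/3 complex binds the side of an actin filament and starts a new filament from it as a branch, which builds the actin networks of lamellipodia, phagocytic cups and moving endosomes. Actr2 and Actr3 encode the actin-related proteins that form the base of the branch. Arpc2 and Arpc4 encode the core that holds the mother filament, Arpc3 a subunit at the side of Actr3, and Arpc1 and Arpc5 proteins complete the complex. Mammals have paralogs for the last pair, Arpc1a or Arpc1b and Arpc5 or Arpc5l, of which a single complex holds one each. ARPC1B is the main ARPC1 protein of blood cells, and its loss in people causes an immune deficiency. The complex is switched on by nucleation-promoting factors of the WASP and WAVE families. Drebrin, the product of Dbn1, binds and stabilizes actin filaments and is best known from the dendritic spines of neurons. In muscle, branched actin is known from the fusion of myoblasts and from the macrophages that clear damaged fibres.

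Arpc1a and Arpc1b lie next to each other on the plus strand of chromosome 5 (GRCm38), at 145083830 to 145108761 and 145114215 to 145130705, with 5453 bases between them. Their coding sequences were 74.8% identical over the aligned bases. Arpc5, at 152766542 to 152775597 on the plus strand of chromosome 1, and Arpc5l, at 39005348 to 39015877 on the plus strand of chromosome 2, had coding sequences that were 73.2% identical. Dbn1 lies at 55473429 to 55488111 on the minus strand of chromosome 13. The stretches before the starts of 4 of these genes are shown because Arpc1b, Arpc5 and Dbn1 had the largest increases after VML of the 10 genes, while Arpc1a, beside Arpc1b, was not called at any time point with the deposited scaling. They are RefSeq sequences (GRCm38.p6), written 5′ to 3′ on the strand of the gene and ending before its first annotated exon, from chr5:145083619-145083829, chr5:145114006-145114214, chr1:152766292-152766541 and, on the minus strand, chr13:55488112-55488326. Capitals mark the letters GGGCGG, known as the GC box, on either strand.
Arpc1a: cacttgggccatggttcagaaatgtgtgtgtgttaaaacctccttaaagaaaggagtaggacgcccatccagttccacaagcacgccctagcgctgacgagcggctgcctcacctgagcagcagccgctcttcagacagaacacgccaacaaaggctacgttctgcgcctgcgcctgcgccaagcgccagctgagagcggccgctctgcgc
Arpc1b: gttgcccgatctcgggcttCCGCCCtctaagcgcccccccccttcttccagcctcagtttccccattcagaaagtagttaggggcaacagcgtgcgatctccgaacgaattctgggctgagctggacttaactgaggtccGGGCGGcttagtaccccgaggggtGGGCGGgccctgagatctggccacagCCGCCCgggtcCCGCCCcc
Arpc5: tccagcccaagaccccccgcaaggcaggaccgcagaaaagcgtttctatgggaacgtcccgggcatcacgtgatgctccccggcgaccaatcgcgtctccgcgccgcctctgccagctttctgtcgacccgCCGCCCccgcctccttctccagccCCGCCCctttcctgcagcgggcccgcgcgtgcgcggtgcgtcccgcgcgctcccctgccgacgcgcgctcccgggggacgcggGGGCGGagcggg
Dbn1: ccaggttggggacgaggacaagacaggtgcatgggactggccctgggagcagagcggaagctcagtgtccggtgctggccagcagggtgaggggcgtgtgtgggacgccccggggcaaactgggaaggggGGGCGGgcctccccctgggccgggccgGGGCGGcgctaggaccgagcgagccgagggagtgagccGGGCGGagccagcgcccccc

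In the 250 bases before the RefSeq start, Arpc1b held 7 such matches, Dbn1 4, Arpc5 3, Arpc2 and Actr2 2 each, and Actr3 1. Arpc1a, Arpc3 and Arpc4 held 0, and Arpc5l had no entry. Among all 32851 promoter windows of this length, 32.7% held at least 1 match, a share not matched for GC content. The GC content of the 9 windows ran from 51.2% for Arpc3 to 77.2% for Dbn1. Arpc3 and Arpc4, with 0 matches, were also called higher at day 3, and a link between matches and increases was not tested. The letters GAGGAA, the core bound by Spi1, a transcription factor of macrophages, were found in 0 of the 9 windows on either strand, against 23.3% of all windows. The CArG box, the site of serum response factor, was found once, in Arpc4, and in 1.47% of all windows. These counts describe the letters of the windows and do not show binding.

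The deposited values are FPKM (fragments per kilobase of gene and of sequencing depth, scaled between samples by the authors). FPKM times gene length gave whole reads for 100% of the values, within 0.02 reads, with totals of 14376395 to 24436763 reads per sample and a median of 17398586. Every one of the 10 genes was measured in all 27 samples, from 51 to 8943 reads per gene and sample, and all 10 passed the filter on low values (0.5 FPKM or more in 5 or more samples). A gene was called when limma's Benjamini-Hochberg adjusted p over the 14630 tested genes was under 0.05, and fold changes are differences of log2(FPKM + 1), which understate the change of low genes such as Dbn1. The tissue label held, since the mature fast myofibre markers summed to 64717 to 79829 FPKM in the uninjured muscles. Over all tested genes, 9 of the 27 samples lay nearest to the mean of a group other than their own. Day 7 replicate 5 was nearest to day 3, day 3 replicate 5 to day 7, and day 7 replicate 3 to the uninjured muscles. Day 7 replicate 6 and day 14 replicates 3 and 6 were nearest to day 21, day 14 replicate 1 to day 7, and day 21 replicates 3 and 5 to day 14. Values are also given without day 7 replicate 5 and day 3 replicate 5.

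At day 3, 9 of the 10 genes were called against the uninjured muscles, where 43.2% of all tested genes were called. Of these, 8 were higher (23.4% of all genes were) and Arpc5l was lower (19.8%). The median log2 fold change of the 10 genes was 1.19, against 0.012 for all tested genes. At day 7, 5 genes were called (29.4% of all genes), 4 higher (background 15%) and Arpc5l lower (14.4%), with a median of 0.48 against 0.028. At day 14, 3 genes were called (20.3% of all genes), Arpc1b and Dbn1 higher (9.02%) and Arpc5l lower (11.3%), with a median of 0.27 against 0.020. At day 21, limma called 0 of the 10, against 3.43% of all genes (1.74% higher and 1.69% lower), although Arpc5l and Dbn1 had unadjusted p-values under 0.05, of 0.0170 and 0.0182 (as had 19.8% of all genes), and the median was 0.12 against 0.014. These 4 comparisons share the 5 uninjured samples.

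**Figure D1:**
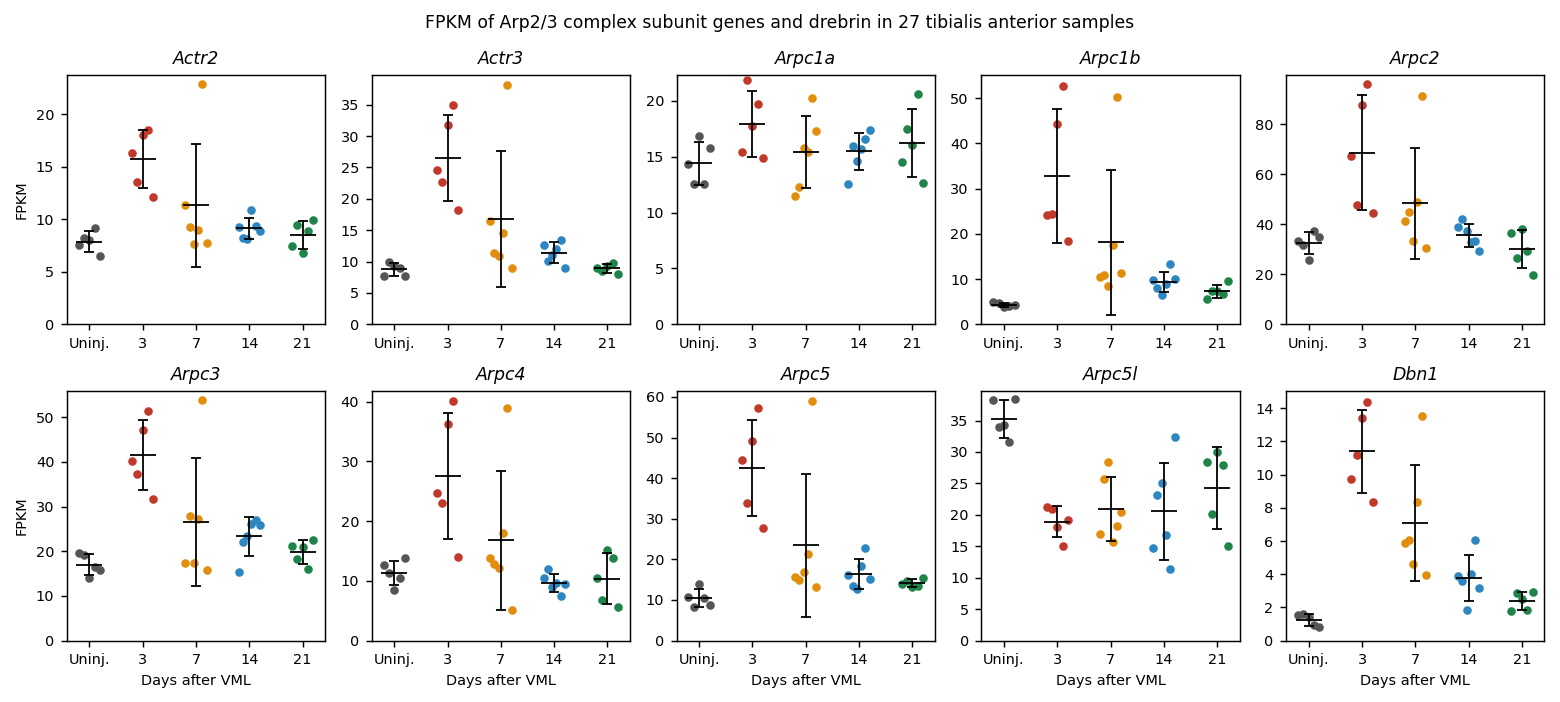
FPKM of each of the 10 genes (vertical axes, from 0) in the uninjured muscles and at 3, 7, 14 and 21 days after VML. Points are samples, horizontal bars group means and error bars 1 SD. The isolated high point at day 7 in most panels is replicate 5, and Arpc5l is the gene whose injured groups have lower means than the uninjured one.

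Arpc1b had the largest fold change at day 3 on the log2(FPKM + 1) scale, while by the ratio of mean FPKM that of Dbn1 was larger. Its FPKM was 4.98, 4.62, 3.83, 4.07 and 4.26 in the uninjured muscles and 24.2, 24.3, 44.3, 52.7 and 18.4 at day 3. Its range at day 7 was 8.54 to 50.2 (median 11.1) and its range at day 14 was 6.55 to 13.3 (median 9.33). The samples of day 21 held 5.57, 7.28, 7.26, 6.71 and 9.67. All 22 injured samples were thus above the highest uninjured one, and the group mean was lower at each later time point. The log2 fold change was 2.55 ± 0.32 (SE) at day 3 (limma, adjusted p = 1.93e-06) and 1.56 ± 0.31 at day 7 (adjusted p = 8.20e-04). It was 0.94 ± 0.31 at day 14 (adjusted p = 0.0315) and 0.62 ± 0.32 at day 21, which was not called (adjusted p = 0.282). The call at day 14 was lost when any one of uninjured replicates 2, 3, 4 and 5 or day 14 replicates 1, 4 and 5 was left out, with adjusted p-values of 0.0506 to 0.0806, and with no filter on low values (adjusted p = 0.0726). In FPKM, the mean of 32.8 ± 14.8 (SD, n = 5) at day 3 was 7.53 times the uninjured mean of 4.35 ± 0.454 (n = 5).

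Dbn1 was the lowest of the 10 genes in every group by FPKM. It was at 1.51, 1.58, 1.40, 0.918 and 0.802 FPKM in the uninjured muscles (51 to 123 reads), and at 9.73, 11.2, 13.4, 14.4 and 8.37 at day 3. The lowest and highest values were 3.96 and 13.5 at day 7 (median 5.99) and 1.87 and 6.09 at day 14 (median 3.72). The day 21 values were 1.79, 2.86, 2.48, 1.81 and 2.94. As with Arpc1b, no injured sample was as low as any uninjured one. The log2 fold change was 2.46 ± 0.23 at day 3 (limma, adjusted p = 7.50e-08), 1.77 ± 0.22 at day 7 (8.57e-06) and 1.05 ± 0.22 at day 14 (0.00255). At day 21 it was 0.59 ± 0.23 and not called (adjusted p = 0.156). The ratio of mean FPKM to the uninjured mean went from 9.18 at day 3 over 5.70 and 3.03 to 1.91 at day 21.

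Of the genes for the base of the branch, Actr3 had the larger fold change, a difference from Actr2 that was not tested. Actr3 was at 7.64 to 9.96 FPKM in the uninjured muscles and at 24.6, 22.7, 31.8, 35.0 and 18.2 at day 3, with no overlap, and rose by 1.47 ± 0.24 on the log2 scale (limma, adjusted p = 3.30e-05). It was still higher at day 7 (0.71 ± 0.23, adjusted p = 0.0207), when its range of 9.05 to 38.2 overlapped that of the uninjured muscles, a call that was lost with only these 2 groups in the fit (adjusted p = 0.0955). At day 21 its 5 values, 7.97 to 9.73, lay within the uninjured range. Actr2 rose by 0.90 ± 0.19 at day 3 (adjusted p = 5.81e-04), from 6.46 to 9.15 FPKM in the uninjured muscles to 12.1 to 18.5, and was not called later with the deposited scaling. At day 7 Actr2 was called with FPKM rescaled to a constant sum (TPM), at 1.09 (adjusted p = 0.00947), and with the denominator replaced by the reads each sample holds (own totals), at 0.88 (adjusted p = 0.0126).

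The core subunits Arpc2 and Arpc4 and the subunit Arpc3 were called at day 3 alone among the time points with the deposited scaling and all samples. Arpc2, by mean the most abundant of the 10 transcripts in every injured group, was at 25.7 to 37.1 FPKM in the uninjured muscles and at 67.1, 47.6, 87.7, 96.0 and 44.6 at day 3 (log2 fold change 1.0004 ± 0.24, limma adjusted p = 0.00154). Arpc3 was at 14.0 to 19.5 and then 31.8 to 51.4 FPKM (1.23 ± 0.23, adjusted p = 1.50e-04). Arpc4 was at 8.48 to 13.8 and then 24.7, 23.05, 36.2, 40.1 and 13.9 FPKM (1.14 ± 0.33, adjusted p = 0.00736), so that day 3 replicate 5 lay just above the highest uninjured sample. By day 21 the mean FPKM of Arpc2 (30.1 ± 7.57) and Arpc4 (10.4 ± 4.20) lay slightly below the uninjured means of 32.5 ± 4.34 and 11.4 ± 2.04, differences that were not called, and that of Arpc2 changed sign with TPM and with own totals. At day 7 Arpc2 was called with TPM (1.199), own totals (1.01) and quantile normalization (0.70). Arpc3 was called at day 7 with the same 3 scalings (1.21, 1.02 and 0.66), with sample quality weights (0.48) and without day 7 replicate 3 (0.58) or 6 (0.61). It was also called at day 14 with own totals (0.80) and with quality weights (0.43).

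Arpc5 rose by 1.91 ± 0.27 at day 3 (limma, adjusted p = 7.02e-06), from 10.6, 8.30, 13.9, 10.6 and 8.67 FPKM in the uninjured muscles to 44.5, 33.98, 49.04, 57.3 and 27.8. At day 7 it was at 13.1 to 58.9 FPKM with a median of 16.3 (0.91 ± 0.26, adjusted p = 0.0103), which was not called with only the 2 groups in the fit (adjusted p = 0.0637). At day 14 (0.61 ± 0.26, adjusted p = 0.0935) and day 21 (0.43 ± 0.27, adjusted p = 0.391) it was not called. The call at day 14 was made, at the same 0.61, without day 7 replicate 5 (adjusted p = 0.0121), without both day 7 replicate 5 and day 3 replicate 5 (0.00703) and with only the 2 groups in the fit (0.0182). It was also made with TPM (1.09), own totals (0.97) and quality weights (0.59).

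Arpc5l went the other way. By mean, though not in replicate 4, it was the most abundant of the 10 transcripts in the uninjured muscles. It was at 38.2, 33.9, 34.3, 31.5 and 38.4 FPKM there, and at 21.2, 21.0, 18.1, 15.1 and 19.1 at day 3. The day 7 samples spanned 15.7 to 28.4 (median 19.4) and the day 14 samples 11.3 to 32.4 (median 19.97). Day 21 had 28.4, 20.1, 29.99, 27.9 and 14.98. All injured samples were below the lowest uninjured one except day 14 replicate 6. The log2 fold changes were -0.87 ± 0.22, -0.75 ± 0.21 and -0.82 ± 0.21 at days 3, 7 and 14 (limma, adjusted p = 0.00239, 0.00947 and 0.00808) and -0.56 ± 0.22 at day 21 (0.151). With the replicate letter as a block, Arpc5l was called at day 21 too (-0.68, adjusted p = 0.0336). These falls depend on the scaling between samples that the deposited FPKM carry. With TPM, which raised the median log2 fold change of all tested genes to 0.62 at day 3, they were -0.08, -0.05 and -0.37 at days 3, 7 and 14 and none was called. With own totals, which raised that median to 0.40 at day 3, they were -0.23, -0.22 and -0.44, again with none called. Under both, the log2 fold change of Arpc5l at day 3 was below the median of all genes. The share of called genes that were higher at day 3 was 54.1% with the deposited scaling, 95.5% with TPM and 91.4% with the samples' own totals, and of the 10 genes 9 were then called higher and 0 lower in both.

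Arpc1a had the smallest change at day 3 with the deposited scaling. It was at 14.3, 12.5, 16.9, 12.6 and 15.8 FPKM in the uninjured muscles and at 15.4, 21.8, 17.8, 19.8 and 14.9 at day 3, with overlapping ranges, and its log2 fold changes of 0.29, 0.08, 0.10 and 0.16 at days 3, 7, 14 and 21 were not called. With TPM it was 1.10 at day 3 and 0.78 at day 7, and with the samples' own totals 0.92 and 0.59, and each of these was called. At day 3 it was also called with quantile normalization (0.34) and with quality weights (0.30). Whether Arpc1a was called thus depended on the scaling and on the weights.

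**Figure D2:**
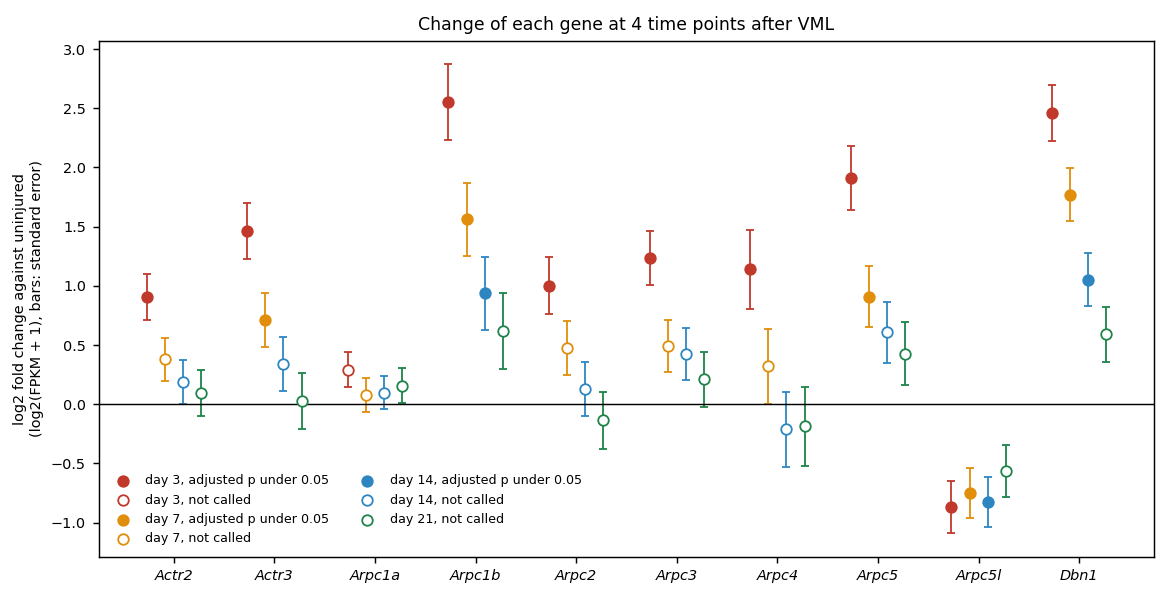
Log2 fold change of each gene against the uninjured muscles (vertical axis, difference of log2(FPKM + 1)), with standard errors, at the 4 time points in order from left to right. Filled points have a limma adjusted p under 0.05. Arpc1b (2.55) and Dbn1 (2.46) lie highest at day 3, Arpc5l lies below 0 throughout, and at day 21 no point is filled.

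A ratio between paralogs in one sample does not depend on this scaling. The share of Arpc1b in the summed FPKM of Arpc1b and Arpc1a was 25.8, 26.97, 18.5, 24.4 and 21.3% in the uninjured muscles and 61.1, 52.7, 71.4, 72.7 and 55.2% at day 3. The range was 35.1 to 71.2% at day 7 and 30.9 to 44.4% at day 14, and the shares of day 21 were 27.7, 29.4, 31.2, 24.5 and 43.4%. Arpc1b thus went from the minor to the major transcript of the pair at day 3 in 5 of 5 samples. The levels of these shares rest on gene lengths of 5115 bases for Arpc1b and 2567 for Arpc1a. By reads, not divided by length, Arpc1b was also below Arpc1a in each uninjured sample (230 to 407 against 398 to 592). It was above Arpc1a in each day 3 sample (2000 to 6138 against 813 to 1204). The log2 ratio of Arpc1b to Arpc1a exceeded that of the uninjured muscles by 2.49, 1.67, 0.98 and 0.56 at days 3, 7, 14 and 21. Two-sided exact permutation tests, adjusted over the 8 paralog comparisons made, gave p = 0.00907, 0.00907, 0.00866 and 0.0317. The smallest p that the design allows before adjustment is 0.00794 with 5 against 5 samples and 0.00216 with 6 against 5. At day 21, 4 of 5 samples were above the uninjured range. The difference at day 21 was no longer under 0.05 without uninjured replicates 3, 4 or 5 or day 21 replicates 2, 3 or 5, with differences of 0.37 to 0.59 and adjusted exact permutation p-values of 0.0556 to 0.0794.

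The share of Arpc5l in the sum of Arpc5l and Arpc5 was lower after VML. It was 78.2, 80.3, 71.2, 74.9 and 81.6% in the uninjured muscles and 32.2, 38.2, 27.003, 20.8 and 40.8% at day 3. The range was 23.7 to 63.5% at day 7 and 33.2 to 68.3% at day 14, and day 21 had 67.1, 57.6, 69.5, 67.5 and 49.2%. All 22 injured samples were below the uninjured range. The log2 ratio of Arpc5l to Arpc5 was lower, by -2.91, -1.75, -1.52 and -1.05 at days 3, 7, 14 and 21 (exact permutation tests, adjusted p = 0.00907, 0.00866, 0.00907 and 0.00907). The sum of the pair was 45.7 ± 3.27 FPKM in the uninjured muscles and 61.4 ± 10.3 at day 3, and that of Arpc1a and Arpc1b 18.8 ± 1.78 and 50.7 ± 16.2.

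Actr3b, a paralog of Actr3 that is not among the 10 genes, fell as Actr3 rose. It was at 5.23 to 9.66 FPKM in the uninjured muscles and 1.07 to 2.33 at day 3, a log2 fold change of -1.60 ± 0.33 (limma, adjusted p = 4.11e-04), which remained past the threshold with TPM (-1.10) and with the samples' own totals (also -1.10). Its log2 fold change was -1.29 at day 7 and -1.12 at day 14, both called, and -0.66 at day 21, not called. At day 14 the call was lost with TPM (-0.80, adjusted p = 0.0657). Of the summed FPKM of Actr3b and Actr3 it held 38.4 to 51.4% in the uninjured muscles, 2.96 to 9.27% on day 3, 4.44 to 44.6% on day 7, 11.8 to 35.8% on day 14 and 26.5 to 38.0% on day 21. The highest share of day 7 was that of replicate 3, which at 8.83 FPKM of Actr3b lay within the uninjured range.

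**Figure D3:**
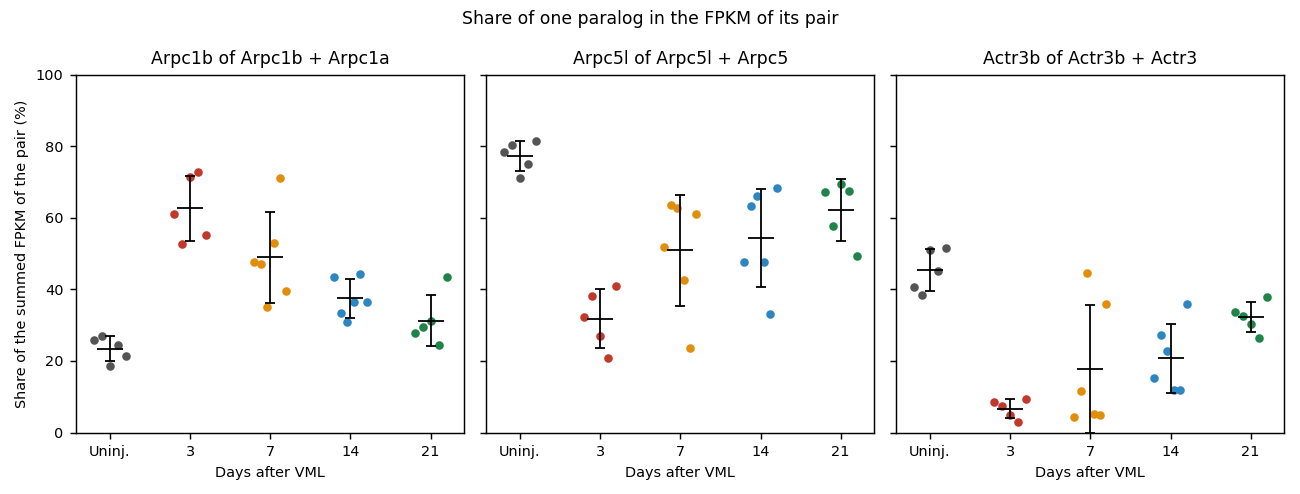
Share of Arpc1b, Arpc5l and Actr3b in the summed FPKM of each paralog pair (vertical axis, percent) in the uninjured muscles and after VML. Points are samples, horizontal bars means and error bars 1 SD. At day 3 the share of Arpc1b lies above 50% in all 5 samples, and those of Arpc5l and Actr3b lie below the uninjured range.

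The steps between successive time points gave 0 calls among the 10 genes with limma. From day 3 to day 7, 7 of the 14630 genes (0.0478%) were called, from day 7 to day 14 0.335% and from day 14 to day 21 0%. The median log2 difference of the 10 genes was -0.72, -0.32 and -0.20 in these steps. At an unadjusted p under 0.05, 8 genes were lower in the first step (11.4% of all genes were), 2 (Arpc1b and Dbn1) in the second (7.55%) and 1 (Dbn1) in the last (3.11%). Without day 7 replicate 5, 8 of the 10 genes were called lower at day 7 than at day 3 (10.1% of all genes were). Without day 3 replicate 5 it was 4 (4.43%), and without both 8 (11.9%). Arpc1b was lower by -0.99 with all samples (adjusted p = 0.102) and by -1.51 without both. Leaving out both was chosen after the data were seen. For Arpc1b they were the lowest sample of day 3 (18.4 FPKM) and the highest of day 7 (50.2). Without them the difference had to widen, so the calls made without these samples are no test of this step. Against day 3, 8 genes were called at day 21 (25.5% of all genes), all of them lower (16.2%) and 0 higher (9.23%), from -0.81 for Actr2 to -1.93 for Arpc1b, and Arpc1a and Arpc5l were not called.

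Without day 7 replicate 5, the increases at day 7 against the uninjured muscles were smaller and the same 4 genes were called higher. Dbn1 went from 1.77 to 1.58, Arpc1b from 1.56 to 1.22, Arpc5 from 0.91 to 0.61 and Actr3 from 0.71 to 0.45. Without day 3 replicate 5, the 9 calls at day 3 remained.

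By ranges, 8 genes lay wholly above the uninjured samples at day 3 (19.8% of all tested genes did) and Arpc5l wholly below (16.5%). At day 7 the genes above were Arpc1b and Dbn1 (7.25%) and the gene below Arpc5l (5.37%). At day 14 Arpc1b and Dbn1 lay above (7.67%) and 0 genes below (8.05%). At day 21 Arpc1b and Dbn1 again lay above (5.26%), and Arpc5l below (5.13%), although limma called none of them. Fitted on the uninjured and day 21 samples alone, Arpc1b (adjusted p = 0.0145) and Dbn1 (adjusted p = 0.0328) were called higher at day 21, as were 5.17% of all genes in that fit.

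**Figure D4:**
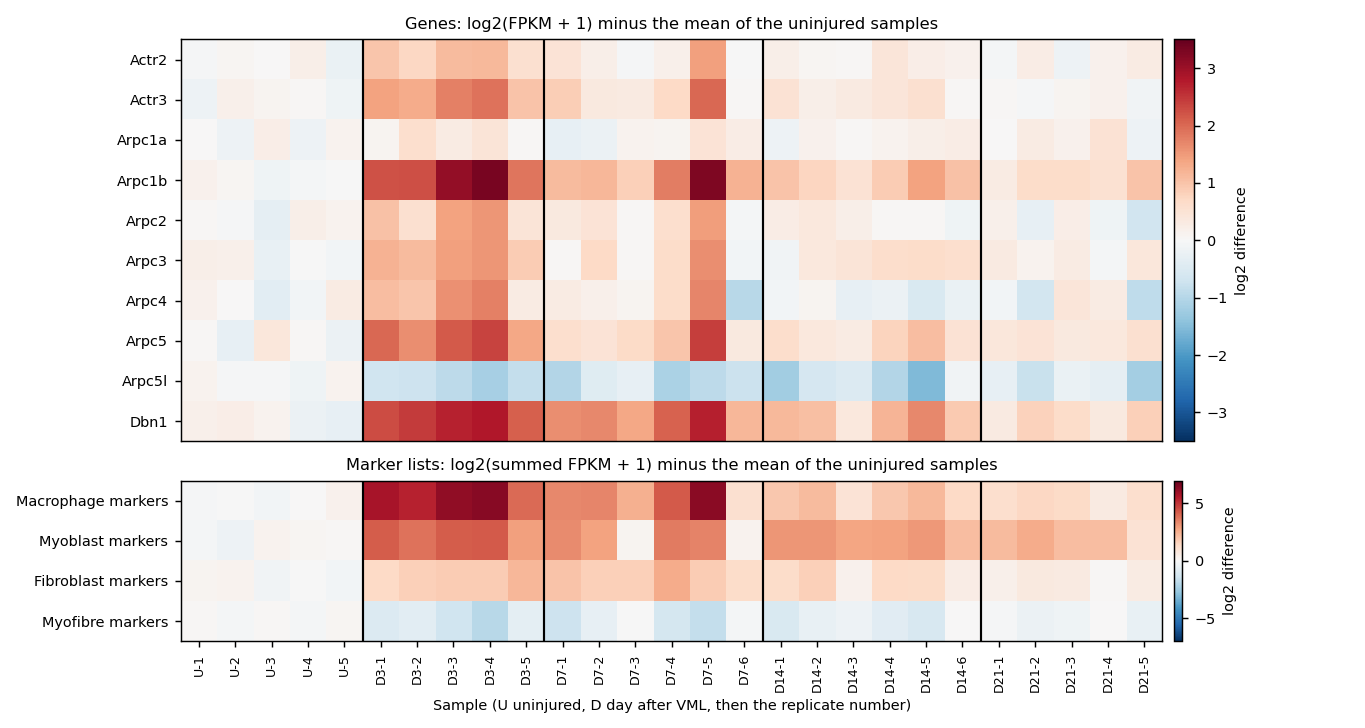
Upper panel, log2(FPKM + 1) of each gene in each of the 27 samples minus the mean of the 5 uninjured samples. Lower panel, the same for the summed FPKM of 4 marker lists, on a wider colour scale. Red is higher and blue lower, columns are samples and black lines part the groups. Day 3 replicates 3 and 4 and day 7 replicate 5 are the reddest for most genes and for the macrophage markers, whereas Arpc5l is blue in all injured groups.

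Some markers of other cell types rose with most of these genes, and others fell or were not called. Of all tested genes, 23.4, 15, 9.02 and 1.74% were called higher at days 3, 7, 14 and 21. At day 3, 19.8% were called lower. The 10 macrophage and monocyte markers summed to 31.4 to 44.8 FPKM in the uninjured muscles. The sums after VML were 589 to 3058 (day 3), 81.3 to 2937 (day 7), 72.1 to 182 (day 14) and 58.0 to 102 (day 21), and 10, 9, 3 and 0 of the markers were called higher. The lowest sum of day 3 was that of replicate 5 and the highest of day 7 that of replicate 5, where the others reached at most 726. The 7 markers of satellite cells and regenerating fibres summed to 17.9 to 27.9 FPKM in the uninjured muscles and 172 to 464 at day 3, with 6 of 7 called higher. At days 7, 14 and 21 these sums were 26.5 to 294, 108 to 206 and 47.3 to 145, with 5, 5 and 3 higher. The 6 leukocyte markers summed to 4.56 to 5.95 FPKM in the uninjured muscles and 65.9 to 215 at day 3, and 6, 6, 2 and 0 of them were higher at days 3, 7, 14 and 21. The 6 fibroblast markers summed to 119 to 168 and, at day 3, 376 to 713 FPKM, with 5, 4, 4 and 1 higher at those times. Of the 5 markers of cycling cells 5 were higher at day 3. The 8 markers of mature fast fibres summed to 18985 to 44674 FPKM at day 3, with 7 of 8 lower. Of 6 endothelial markers 0 were higher and 3 lower at day 3, and of 5 smooth muscle and pericyte markers 1 was higher and 2 lower. The 3 tested neutrophil markers were higher at day 3. No tested marker of Schwann cells (5), red blood cells (5), adipocytes (3) or lymphocytes (1) was called at day 3. At day 7 the 3 adipocyte markers were called higher, and again no marker of Schwann cells, red blood cells or lymphocytes was called. In bulk tissue, a change in the number of cells of a type and a change of RNA per cell cannot be told apart, and the part of these cell types in the results for the 10 genes was not tested.

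The genes whose log2(FPKM + 1) was most like that of Arpc1b over the 27 samples were Cyth4 (Pearson r = 0.981), Ucp2 (0.981) and Cap1 (0.978). For Dbn1 they were Dap (0.981), Serpinh1, the collagen chaperone (0.976), and Apoe (0.971). For Arpc5l, added after its values were seen, they were Cox5a, a subunit of cytochrome c oxidase (0.942), Ankrd40 (0.937) and Tusc2 (0.931). These coefficients describe samples that share groups, scaling and tissue composition.

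The genes that act on the complex were read from lists of its regulators, at day 3 against the uninjured muscles, where 23.4% of all tested genes were called higher and 19.8% lower. Of the 11 tested nucleation-promoting factors and partners, 5 were higher and 2 lower. Cttn, cortactin, which stabilizes branches, rose by 1.19 (limma, adjusted p = 2.42e-06) and Wasf2, a WAVE protein, by 0.83 (adjusted p = 0.00144), whereas Washc1, of the endosomal WASH complex, was at 0.30 (adjusted p = 0.0702) and was called with TPM (1.09) and own totals (0.88). Of the other 8 WAVE complex genes 6 were higher, among them Brk1 (0.61) and Abi1 (0.86), and Nckap1 was not called (-0.11 with the deposited scaling, 0.67 with TPM).

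Of the 8 inhibitors and branch disassembly factors, 6 were higher and 1 lower. Coro1b rose by 1.43 and Coro1a, a coronin of leukocytes that is also on the leukocyte marker list, by 3.34 (limma, adjusted p = 4.69e-06). Of 14 genes for non-muscle actins and for the binding, severing and capping of actin, 10 were higher and 2 lower. Among these, Actb, the cytoplasmic actin, rose by 1.74 and the monomer-binding thymosins Tmsb4x and Tmsb10 by 1.60 and 4.13. Of 7 genes for drebrin-like protein and partners of drebrin, 3 were higher and 1 lower. Dbnl, the drebrin-like protein, rose by 1.56 (adjusted p = 8.62e-05), while Cdk5, a kinase of drebrin (0.29, but called with TPM at 1.09 and with own totals at 0.89), and Mapre3, a microtubule end-binding protein (-0.38, but 0.42 with TPM), were not called with the deposited scaling.

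The genes called lower in these lists were Pick1 (-0.66), an inhibitor of the complex, and, named after their values were seen, Jmy (-0.78), a nucleation-promoting factor, Wipf3 (-0.83), of the WASP-interacting proteins, Capza2 (-0.72), of the capping protein, Pfn2 (-1.27), a profilin, and Homer1 (-1.01), a scaffold of the postsynaptic density. With TPM 0 of these 6 were called, and Capza2 changed sign to 0.08. With own totals Pfn2 (-0.62, adjusted p = 0.0409) and Homer1 (-0.54, adjusted p = 0.00650) were called, and with quantile normalization all 6. At day 21, limma called 2 genes of all these lists, Jmy (-0.58, adjusted p = 0.0230) and Homer1 (-0.69, adjusted p = 0.0216), both lower, and neither was called with TPM (adjusted p = 0.460 and 0.270) or with own totals (0.244 and 0.104). The call of Jmy was also lost without uninjured replicates 2 or 4 or day 21 replicates 1 or 5 (adjusted p = 0.0543 to 0.0706), and that of Homer1 without uninjured replicates 2 or 4 or day 21 replicate 2 (0.0501 to 0.0721).

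**Figure D5:**
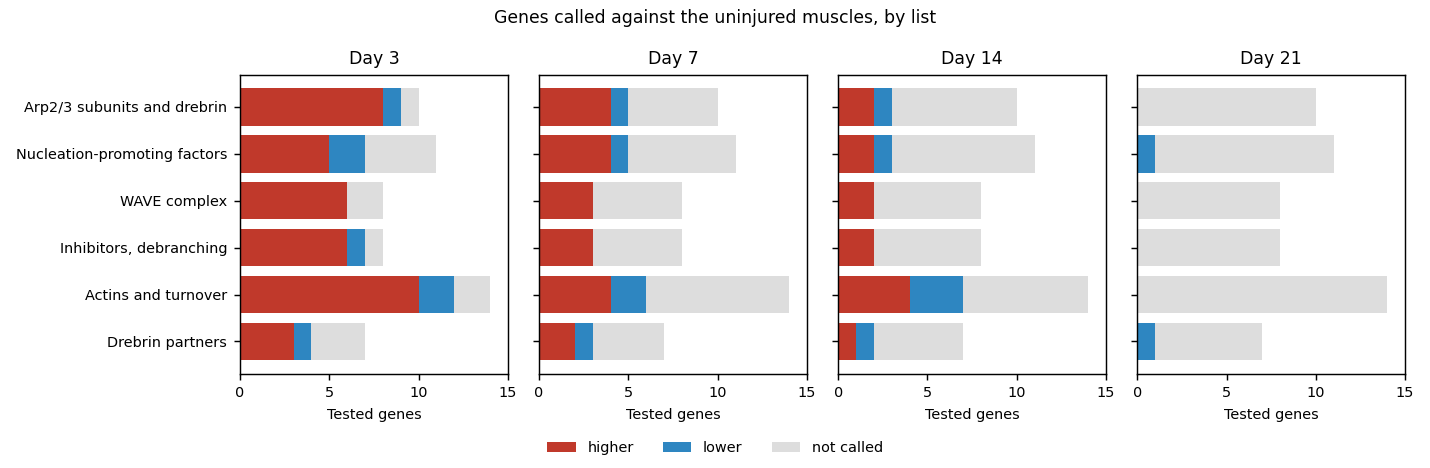
Number of tested genes (horizontal axis) called higher (red), lower (blue) or not called (grey) against the uninjured muscles with limma at an adjusted p under 0.05, for the 10 genes and for 5 lists of their regulators and partners, at each time point. Red bars are longest at day 3, and at day 21 1 gene of the nucleation-promoting factors and 1 of the drebrin partners are called.

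Reads of some genes could be shared. Arpc1b overlaps exons of Pdap1, on the opposite strand, over 931 bases or 18.2% of its exonic length, and the libraries were not directional. Pdap1 itself was at 0.43 on the log2 scale at day 3 (limma, adjusted p = 0.0640). Arpc4 overlaps Ttll3 on the same strand over 283 bases (12.2%), and Ttll3 was at 0.22 at day 3 (adjusted p = 0.243). The pseudogene transcripts Gm5637, 96.5% identical to Arpc1b over 1128 bases, and Gm8822, 98.8% identical to Actr3 over 1255 bases, carried reads equal to 2.15% and 0.883% of those of the gene they resemble.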

How the data were processed

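Messenger RNA of 27 tibialis anterior samples was sequenced. Per the submitters' processing notes, reads were aligned with HISAT2 2.0.5 and counted per gene with featureCounts 1.5.0-p3. The genome build is not given in the sources used here, but the coordinates of the 10 genes equal those of GENCODE M21 on GRCm38. The authors deposited 1 table of FPKM for 54532 genes, normalized in a way their text does not name. The denominator within these FPKM was 0.747 to 1.48 times the reads that the sample holds, with means of 0.782 in the uninjured group and 1.25, 1.18, 1.04 and 0.897 at days 3, 7, 14 and 21. All columns were mapped to samples by their descriptions, and groups and replicate numbers were read from titles.

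From the deposited FPKM, log2(FPKM + 1) of the 14630 genes with at least 0.5 FPKM in at least 5 samples was fitted with limma 3.58.1 (R 4.3.3), with 1 coefficient per group, a variance trend and the 27 samples fitted together. Tests were two-sided with Benjamini-Hochberg adjustment within each comparison. The fit was tested on simulated data. Log2 ratios of paralogs were compared with exact permutation tests (scipy 1.17.1). Sequences are from RefSeq, which held promoter windows for 9 of the 10 genes. The 10 genes and all lists were chosen with earlier results of these data known. The genes named are the 10 genes, the 3 of each list with the highest mean FPKM, the 3 most similar genes of the gene with the largest change and of Dbn1, and others marked in the text or named for an overlap or shared sequence. One list of regulators is not reported here. Alternatives comprised other pseudocounts, filters, scalings, designs and samples left out. Python 3.11.15, pandas 2.3.3, numpy 2.4.6 and matplotlib 3.10.9 were used.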

Additional observations from a re-analysis of the deposited data

Results flagged for a closer look

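Dixon's test was applied to FPKM without a logarithm. Chance alone passes its 95% critical value in about 5% of sets if values are normally distributed, which was not tested here. In 6 of the 50 sets of samples formed by 10 genes and 5 groups, 1 sample stood apart by more than this value. In all 6 the sample was day 7 replicate 5, the highest of its group, with 91.3 FPKM for Arpc2, 53.9 for Arpc3, 58.9 for Arpc5, 38.2 for Actr3, 50.2 for Arpc1b and 22.9 for Actr2. The 6 sets share this sample and are not independent. Its 10 macrophage and monocyte markers summed to 2937 FPKM, against 81.3 to 726 in the other samples of day 7.

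The change against the uninjured muscles differed between day 3 and day 21 by limma's test of the difference, at an adjusted p under 0.05, in 8 genes. Of all tested genes, 25.5% were called in this comparison and 16.2% were lower at day 21. The log2 difference of day 21 from day 3 was -0.81 for Actr2, -1.44 for Actr3, -1.93 for Arpc1b, -1.14 for Arpc2, -1.03 for Arpc3, -1.33 for Arpc4, -1.48 for Arpc5 and -1.87 for Dbn1. All 8 were higher at day 3 than in the uninjured muscles.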

How the results depend on the processing

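Of 2000 values compared, those of the 10 genes in 5 comparisons under 40 alternatives, 1939 kept direction and side of the threshold, 16 lost and 32 gained a call, and 13 changed sign. The alternatives include each of the 27 samples left out in turn. Where that sample was in neither group compared, the fold change could not move. The 1939 thus include values whose direction was fixed in advance. No value that was called with all samples and the deposited scaling changed sign. The number of genes called against the uninjured muscles stayed at 9 to 10 at day 3. At day 7 it moved from 5 to 8 with TPM (45% of all genes were then called), 8 with the samples' own totals (39.5%) and 3 with only the 2 groups in the fit (19.8%). At day 14 it was 5 with sample quality weights (29.6%), and at day 21 it was 2 with only the 2 groups (10.1%), 1 with the replicate letter as a block (Arpc5l, 8.43%) and 1 with quality weights (Dbn1, 16.9%). For day 7 against day 3 it was 8 without both doubted samples (15.5%), 8 with quality weights (12.9%) and 0 to 8 when single samples were left out, with 8 without day 7 replicate 5 (12.2%) and 4 without day 3 replicate 5 (4.99%). Quality weights and leaving out both samples were chosen after seeing the data. The causes were not tested.

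Values that changed sign, called neither with the deposited scaling and all samples nor in the setting that changed the sign, were Arpc1a at day 7 (-0.0015 without both samples, -0.0061 with quality weights and -0.0015 to 0.15 when samples were left out in turn), Arpc2 at day 21 (0.054 with TPM, 0.054 with own totals and -0.23 to 0.00053 when samples were left out), Arpc4 at day 14 (0.23 with TPM, 0.15 with own totals), Actr3 at day 21 (-0.014 to 0.072 when samples were left out) and Arpc5l for day 21 against day 3 (-0.30 with TPM, -0.14 with own totals). Among the regulators at day 3 these were Nckap1 (0.67 with TPM, 0.50 with own totals, both called), Mapre3 (0.42 and 0.26) and Capza2 (0.079 with TPM, called lower with the deposited scaling). The ratio of Arpc1b to Arpc1a at day 21 was 0.46 with a pseudocount of 1 (adjusted exact permutation p = 0.0556), and 0.37 to 0.68 when samples were left out.

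The labels do not say what samples with the same replicate number or letter share. Samples of one letter carry consecutive numbers in the column labels. For the same replicate number, the correlation of deviations from the group means had a median of -0.003 and was over 0.1 in 15 of 51 pairs. For unlike numbers the median was 0.003, with 55 of 240 pairs over 0.1. For the same replicate letter the median was 0.020, with 15 of 49 pairs over 0.1. For unlike letters it was 0.0007, with 55 of 242 pairs over 0.1. These values cannot show that nothing is shared. With the replicate number as a block, 9, 5, 3 and 0 genes were called at days 3, 7, 14 and 21. Of all 14630 tested genes, that fit called 6560, 4986, 3684 and 795 against the uninjured muscles at these times. With the replicate letter as a block the fit called 6484, 4964, 3701 and 1233, and with no block 6316, 4296, 2969 and 502.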
